A study of Mus musculus with 12 samples.

Results

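Genes whose products splice, fold, trim or degrade messenger RNA were compared between oocytes of aged mice and oocytes of young mice. They were chosen by name: every gene with a probe of its own whose symbol belongs to the families Srsf, Snrp, Sf3a and Sf3b, Hnrnp, Prpf, Ddx, Dhx, Rbm, Cpsf, Cstf, U2af, Lsm or Cnot. This gave 61 genes, measured by 98 of the 22575 probes, out of 3089 genes that could be named. Each of 12 two-colour arrays carried total RNA of aged oocytes in one dye and of young oocytes in the other. By the numbers in the labels, aged sample 1 was set against young sample 1 (called pair 1 here), aged sample 2 against young sample 5 (pair 2), and aged sample 3 against young sample 2 (pair 3). A pair has 4 arrays: it was labelled 2 times, each time with the dyes both ways round. These 4 arrays count as 1 replicate, so n = 3. Age in months, strain, hormone treatment, oocyte stage and the number of oocytes per RNA are not given in the labels. Separate animals behind the numbered RNAs are not stated either. The p-values of aged over young therefore rest on the scatter of these 3 pairs, which may be technical. In the test used (limma) they also draw on the variance of all rows. Those of pair and of dye rest on repeat hybridisations.

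Each value is a log2 ratio, aged over young, after the array's median was set to 0, and holds no expression level. The direction is not settled: the deposited values were assumed to be Cy5 over Cy3, a common convention that the sources used here do not state. If it ran the other way, every aged over young ratio below that rests on this assumption would change sign. The arrays do not settle it either. Once turned by the dyes, arrays of opposite orientation correlated over all probes at a mean r of 0.194 in pair 1, but of -0.0937 in pair 2, -0.17 in pair 3 and -0.136 between different pairs. If instead the authors had already turned the ratios to aged over young, 35 of the 61 genes would have the other sign. Values of that reading, for the families and for some of the genes, are given below as the ratios as deposited.

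In splicing, small nuclear ribonucleoproteins (snRNPs) recognise the ends of an intron and assemble on it into the spliceosome. SR proteins and U2AF help them to find the sites, hnRNP proteins often oppose SR proteins, and helicases of the DEAD-box (Ddx) and DEAH-box (Dhx) families unwind RNA from splicing to translation and decay. CPSF cuts the transcript at its 3′ end for polyadenylation with the help of CSTF, and the CCR4-NOT complex (Cnot genes) later removes the poly(A) tail. A fully grown mouse oocyte has stopped transcription, so it lives on stored messenger RNA whose use and removal depend on tail length.

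With the assumed direction the Dhx genes Dhx29 and Dhx40 had the smallest p of the 61 genes, with opposite signs. The 250 bases before their starts are shown as the proximal promoters of these genes. A single start of each gene is shown, and any entry for them on a further chromosome was left out. The arrays measured RNA and not these sequences. Letters are from RefSeq (GRCm38.p6), 5′ to 3′ on the gene's strand, with CG dinucleotides, the sites of DNA methylation, in capitals. The Dhx29 sequence lies at chr13:112927430-112927679 on the plus strand and the Dhx40 sequence at chr11:86807661-86807910 on the minus strand.

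Dhx29: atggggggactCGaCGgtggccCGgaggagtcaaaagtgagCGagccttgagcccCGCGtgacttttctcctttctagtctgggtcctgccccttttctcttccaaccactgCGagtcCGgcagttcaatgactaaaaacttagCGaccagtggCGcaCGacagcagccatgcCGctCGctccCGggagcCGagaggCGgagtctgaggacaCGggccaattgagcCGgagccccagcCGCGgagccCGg

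Dhx40: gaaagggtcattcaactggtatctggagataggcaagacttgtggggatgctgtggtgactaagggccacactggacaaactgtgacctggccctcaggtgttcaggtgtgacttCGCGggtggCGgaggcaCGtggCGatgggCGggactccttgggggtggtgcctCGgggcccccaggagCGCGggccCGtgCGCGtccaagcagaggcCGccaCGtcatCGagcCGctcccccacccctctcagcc

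The printed 250 bases of Dhx29 held 21 CG dinucleotides and those of Dhx40 held 16. These counts are not set against the medians below, which come from longer windows. Of the 61 genes 54 had a promoter in the RefSeq table, with 71 windows of 300 bases (250 before and 50 after the start). Their median was 26 CG dinucleotides, against 21 in the promoters of all named genes and 7 in all 32851 promoters. TATAAA was found on either strand in 7.04% of the windows of these genes, against 7.73% for named genes and 13.6% of all promoters. GGGCGG was found in 60.6%, 62.4% and 35.7%, CCAAT in 38% (27 of 71), 37.1% and 37.4%, and CANNTG in 60.6%, 62.3% and 72.3%, in the same order. In the printed stretches Dhx29 holds CCAAT and CANNTG, which share letters there, and Dhx40 holds GGGCGG and CANNTG.

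The arrays differed in spread, with an SD over all probes between 0.391 and 1.23 on the log2 scale. The widest was an array of pair 1 with aged RNA in Cy3. Values also followed the order of the probes in the deposited table. Probes 1 apart correlated at rho 0.0884 to 0.392 within an array and probes 215 apart at 0.0932 to 0.366, against -0.0337 to 0.27 for probes 107 apart, over probes of the same array. A layout of 215 probes per row was inferred from this. On the widest array the median of a bin of neighbouring probes ran between -1.0 and 1.06 along the table. Among the 98 probes of the splicing and mRNA processing genes the mean ratio correlated with the probe number at rho = 0.314. Of these probes 39 of 58 (67.2%) lay below 0 among the lower probe numbers and 12 of 40 (30%) among the higher ones, against 62.8% and 35.9% for the probes of all named genes. After each probe was set against the median of its 15 by 15 neighbourhood in that layout, rho was 0.0817 for these probes. Values after this local centring, chosen after the data were seen, are given beside the results.

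**Figure D1:**
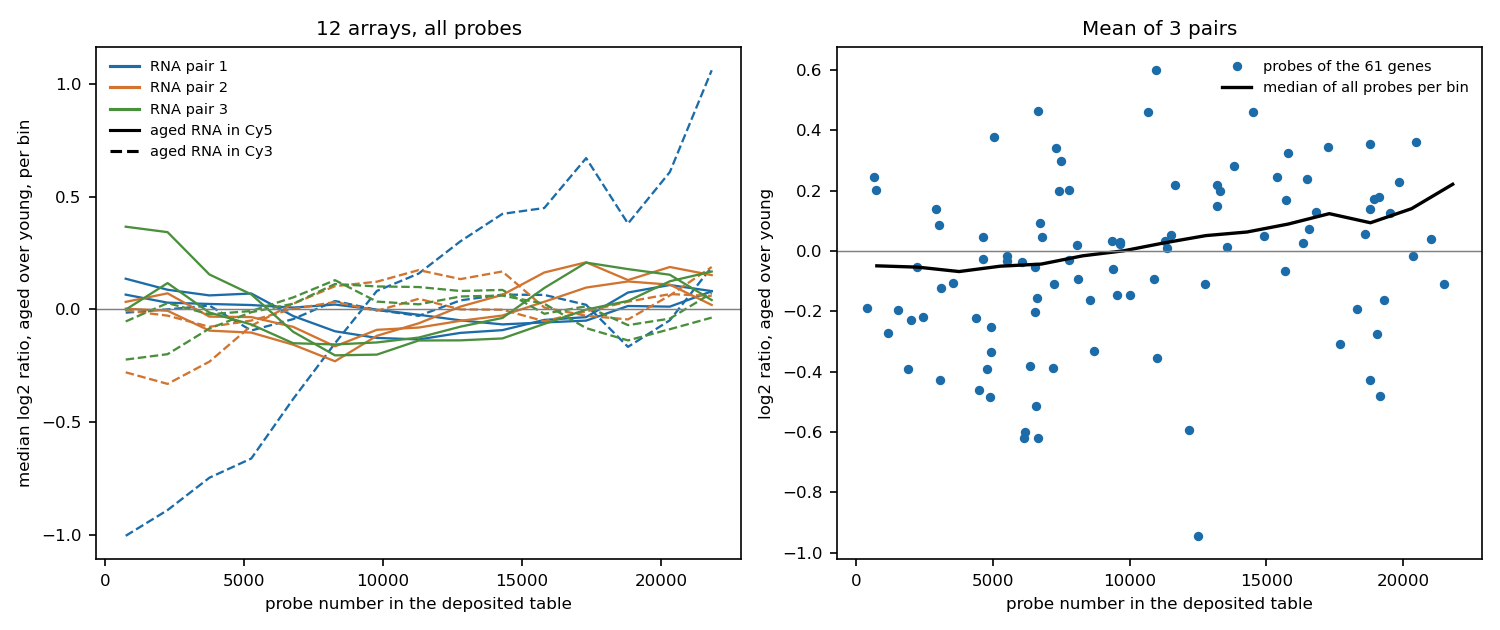
Median log2 ratio, aged over young, of all probes in 15 bins along the probe number of the deposited table, one line per array (left), and mean log2 ratio over 3 RNA pairs of the 98 probes of the 61 genes, as points, with the median of all probes per bin as a line (right). One array of pair 1 with aged RNA in Cy3 runs between -1.0 and 1.06, and the points lie below 0 more often at low probe numbers (39 of 58) than at high ones (12 of 40).

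As a group the genes lay close to 0. Of the 61 genes 37 (60.7%) had a mean ratio below 0, against 49.9% of all named genes, and 24 lay above it. Their median was -0.04 on the log2 scale, with a range between -0.57 and 0.46, against a median of 0.00055 for named genes. The median of pair 1 was -0.16, that of pair 2 was 0.00066 and that of pair 3 was 0.05. After local centring 30 of 61 lay below 0 and the median was 0.0013, so the surplus of genes below 0 was not seen there. Without centring of the arrays the median of all rows moved by over 0.1, to -0.08 against 0.03, and that of the 61 genes to -0.15. In these bulk RNAs fewer cells of a type and less RNA per cell cannot be told apart.

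No gene of the group passed the test. With limma and Benjamini-Hochberg adjustment over all rows, 0 of the 61 genes had an adjusted p under 0.05, where percent called over all 21370 rows was 0, and the group's lowest adjusted p was 0.716. Below 0 there were 3 genes (4.92%) at an unadjusted p under 0.05, and above 0 another 3 (4.92%). Over all rows these shares were 3.77% below and 2.78% above 0, and over named genes 5.34% below and 2.33% above. All 3 pairs were below 0 for 10 genes (16.4%) and above 0 for 6 (9.84%), against 16.4% and 16.3% of named genes. A limma fit of single arrays, with the RNA pair as random block, called 1 of the 61, Dhx29, at an adjusted p of 0.0386, among 284 rows of 21397. That fit counts repeat hybridisations of one RNA pair as further values.

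**Figure D2:**
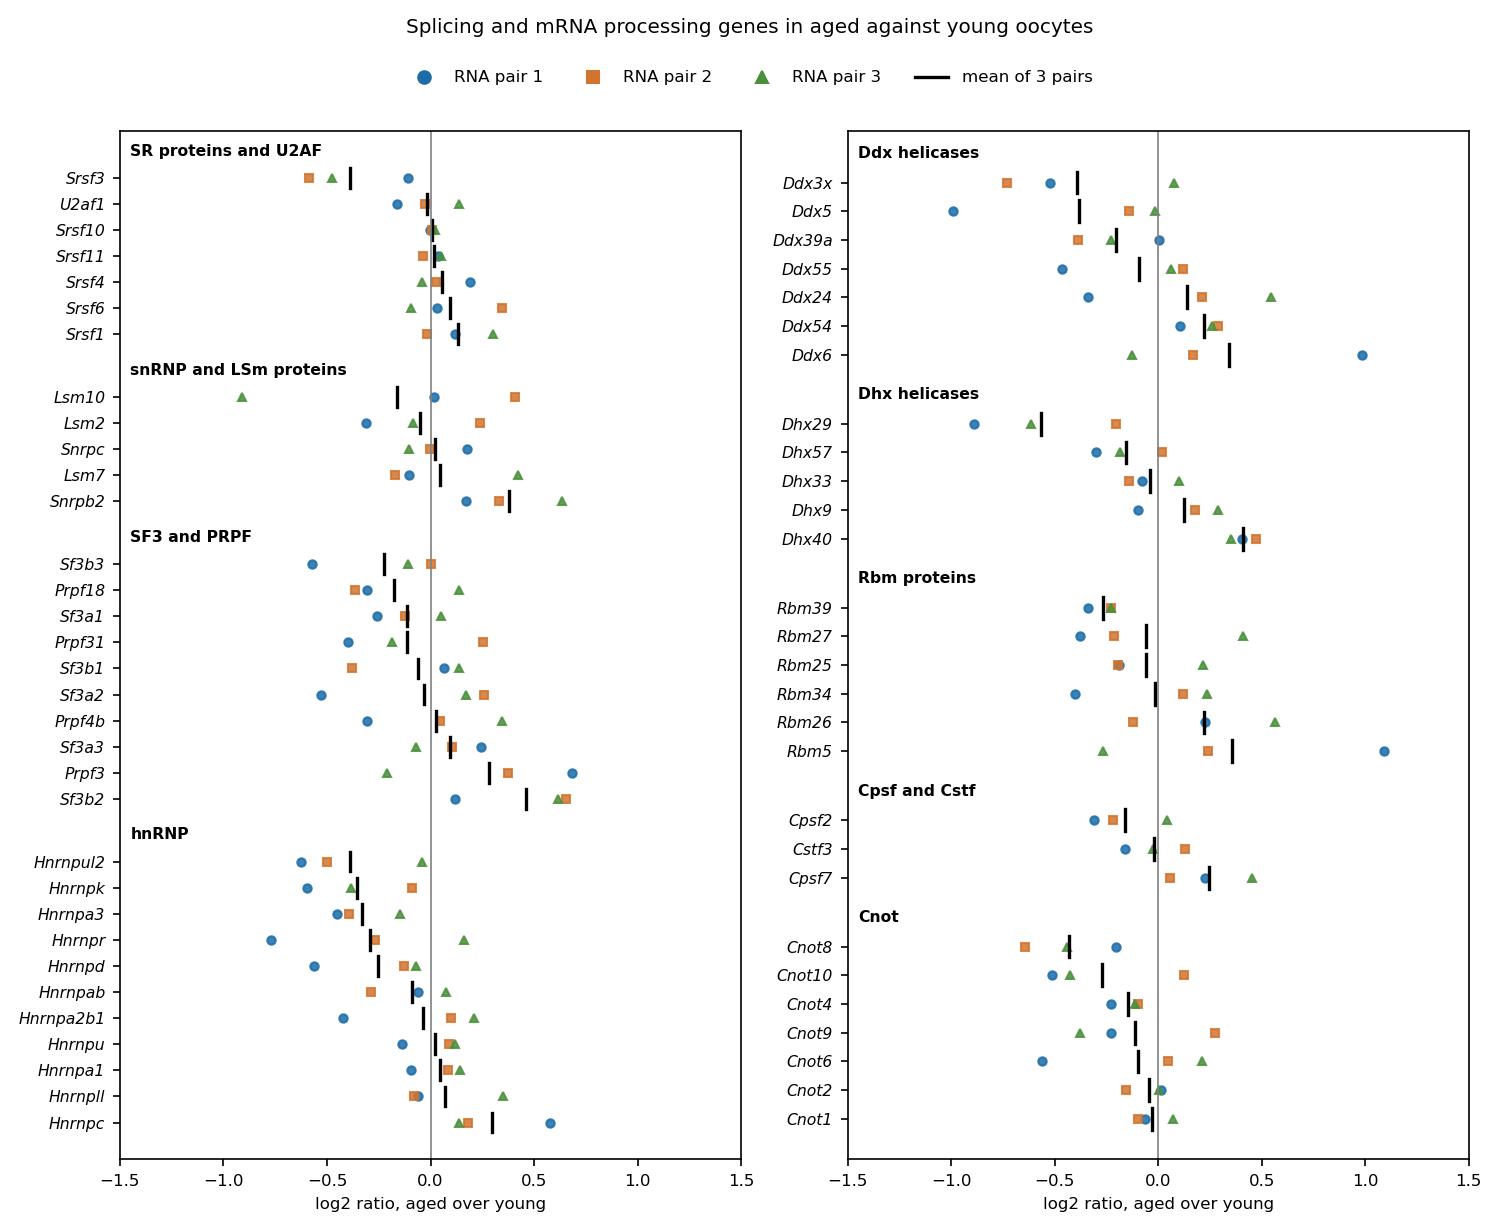
Log2 ratio, aged over young (x axis), of the 61 genes by family (rows), with 1 point for each of the 3 RNA pairs and a bar at their mean. Means lie between -0.57 (Dhx29) and 0.46 (Sf3b2), and in 45 genes the 3 pairs lie on both sides of 0.

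Among the helicases the lowest and the highest mean, with the assumed direction, were those of the DEAH-box genes Dhx29 and Dhx40. With the ratios as deposited Dhx29 was at 0.01, Dhx40 at -0.16 and the DEAD-box gene Ddx3x at 0.35. Dhx29, a helicase that helps ribosomes to scan structured 5′ leaders, had ratios of -0.89, -0.20 and -0.61 in pairs 1, 2 and 3. Each pair lay below 0, and so did 11 of the 12 arrays, the highest at 0.04. The mean was -0.57 ± 0.35 (SD, n = 3), with a limma adjusted p of 0.716, and -0.63 after local centring. Its 2 probes lay at -0.94 and -0.19, both below 0 but far apart.

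Dhx40, a DEAH-box helicase of little known function, had 0.40, 0.47 and 0.35 in pairs 1, 2 and 3. These pairs lay closer together than those of any other gene among the 6 with the smallest p. The mean was 0.41 ± 0.06 (SD, n = 3), with a limma adjusted p of 0.716, 0.37 after local centring, and 11 of 12 arrays were above 0. Its own probes lay at 0.60 and 0.22. A further 5 probes list Dhx40 together with other genes, and they lay at -0.50, -0.14, -0.08, -0.02 and 0.18, mostly on the other side of 0. Without centring of the arrays its mean was 0.29.

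The other 3 Dhx genes lay between -0.16 and 0.12. Among them Dhx57, a helicase whose role is little known, had -0.30, 0.02 and -0.18 in the 3 pairs, with a mean of -0.16 ± 0.16 (SD, n = 3).

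**Figure D3:**
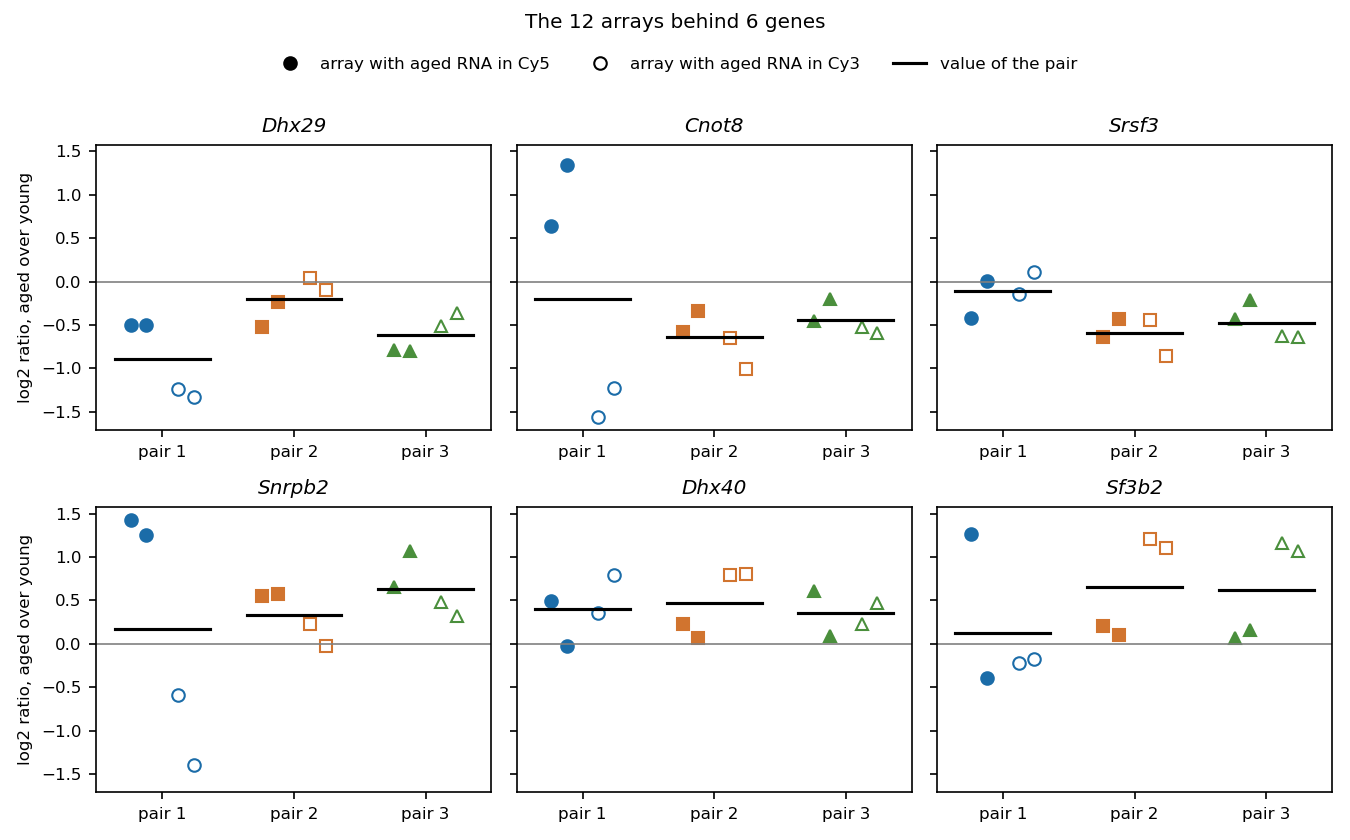
Log2 ratio, aged over young (y axis), on each of the 12 arrays for the 6 genes with an unadjusted p under 0.05, with filled points for aged RNA in Cy5, open points for aged RNA in Cy3 and a bar at the value of each RNA pair. The arrays of Dhx29 lie between -1.33 and 0.04, while in pair 1 those of Cnot8 and Snrpb2 lie on both sides of 0 according to the dye.

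The DEAD-box helicases had 4 of 7 genes below 0 and a median of -0.09. After local centring 3 of 7 lay below 0, with a median of 0.0013. Ddx3x, an X-linked helicase of translation initiation, had -0.52, -0.73 and 0.08 in pairs 1, 2 and 3, with a mean of -0.39 ± 0.42. Ddx5, a helicase of splicing and transcription, had -0.99, -0.14 and -0.01, with a mean of -0.38 ± 0.53 that rested mostly on pair 1. Ddx54, a nucleolar helicase, had 0.11, 0.29 and 0.26 and lay above 0 in each pair, with a mean of 0.22 ± 0.10 (SD, n = 3 each).

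Ddx6, which represses translation and promotes decapping in stored ribonucleoprotein particles of the oocyte, had 0.99, 0.17 and -0.12 in pairs 1, 2 and 3. All 4 arrays of pair 1 lay between 0.59 and 1.34, all 4 of pair 2 between -0.03 and 0.36, and those of pair 3 between -0.42 and 0.11. Its mean was 0.34 ± 0.57 (SD, n = 3), and the pairs differed in a limma test across the 12 arrays with the dye orientation in the model (adjusted p = 0.0173). That test sets pairs against repeat hybridisations and says nothing of age.

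Among the core spliceosome factors SF3 and PRPF, 6 of 10 genes lay below 0, with a median of -0.05 (-0.05 after local centring, and 0.0094 with 5 of 10 below 0 when the arrays were scaled to one spread). Sf3b2, a subunit of the SF3b complex that anchors the U2 snRNP at the branch site, had 0.12, 0.65 and 0.61 in pairs 1, 2 and 3. Each pair lay above 0, pair 1 least, where 3 of the 4 arrays were below 0 and the other at 1.26. Its 1 probe gave a mean of 0.46 ± 0.30 (SD, n = 3, limma adjusted p of 0.716), and 0.47 after local centring. With the ratios as deposited Sf3b2 was at -0.23. In pairs 2 and 3 its ratio was 1.07 to 1.21 where Cy3 marked the aged RNA and 0.07 to 0.20 where Cy5 did.

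The remaining SF3 and PRPF genes lay between -0.23 and 0.28. Sf3b3, another SF3b subunit, had -0.57, 0.00066 and -0.11 in the 3 pairs, with a mean of -0.23 ± 0.30. Prpf3, a protein of the U4/U6 snRNP, had 0.68, 0.38 and -0.21, with a mean of 0.28 ± 0.46 (SD, n = 3 each). Sf3b1, the SF3b subunit next to the branch site, had a mean of -0.06 ± 0.28 from 4 probes at -0.60, 0.35, 0.12 and -0.11.

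Of the snRNP and LSm proteins 2 of 5 lay below 0, with a median of 0.02 (-0.09 without centring). Snrpb2, which encodes the B″ protein of the U2 snRNP, had 0.17, 0.33 and 0.63 in pairs 1, 2 and 3. Its 1 probe gave a mean of 0.38 ± 0.23 (SD, n = 3, limma adjusted p of 0.716), and 0.48 after local centring. With the ratios as deposited Snrpb2 was at 0.54. In pair 1 its arrays lay at 1.43 and 1.25 with aged RNA in Cy5, and at -0.59 and -1.40 with aged RNA in Cy3, so the value of that pair is the mean of large values of opposite sign. Lsm10, part of the U7 snRNP that processes histone messengers, had 0.02, 0.41 and -0.91, and a mean of -0.16 ± 0.68. Lsm2, of the LSm ring on U6 snRNA and in decay, had -0.31, 0.24 and -0.08, and a mean of -0.05 ± 0.28 (SD, n = 3 each). Snrpc, the U1 snRNP protein that helps to recognise the 5′ splice site, had a mean of 0.02 ± 0.14, and a part that followed the dye of -0.49.

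The SR proteins and U2AF had 2 of 7 genes below 0 and a median of 0.02 (-0.10 without centring). Srsf3, the smallest SR protein, which also acts in messenger export and is needed for oocyte maturation in mice, had -0.11, -0.59 and -0.47 in pairs 1, 2 and 3. Each pair lay below 0, and 10 of 12 arrays, from -0.85 to 0.11. With the ratios as deposited Srsf3 was at 0.04. Its 1 probe gave a mean of -0.39 ± 0.25 (SD, n = 3, limma adjusted p of 0.716). After local centring it was -0.31, pair 1 lay at 0.0062, and the unadjusted p was no longer under 0.05. Srsf1, a general splicing activator, had 0.12, -0.02 and 0.30, with a mean of 0.13 ± 0.16, and Srsf6 had 0.03, 0.34 and -0.09, with a mean of 0.09 ± 0.23 (SD, n = 3 each). After local centring these means were 0.018 and 0.0022. Srsf10, a regulator of alternative splicing, had pairs between -0.0011 and 0.024, although its 5 probes ran between -0.48 and 0.46.

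The hnRNP proteins, which bind nascent transcripts, had 7 of 11 genes below 0 and a median of -0.09 (-0.04 after local centring, and 0.0022 with 5 of 11 below 0 when the arrays were scaled to one spread). The medians of the family were -0.42 in pair 1, -0.09 in pair 2 and 0.12 in pair 3. Hnrnpa3, a relative of the splicing repressor Hnrnpa1, had -0.45, -0.39 and -0.15, with a mean of -0.33 ± 0.16, and lay below 0 in each pair and on 11 of 12 arrays. Its mean was -0.63 with aged RNA in Cy3 and -0.03 with it in Cy5, and its dye part of 0.30 passed (limma, adjusted p = 0.0339). Hnrnpul2 had -0.63, -0.50 and -0.04, with a mean of -0.39 ± 0.31. Hnrnpk, which binds C-rich RNA, had -0.60, -0.09 and -0.38, with a mean of -0.36 ± 0.25 (SD, n = 3 each; limma adjusted p of 0.716 for all of them). Hnrnpr had -0.77, -0.27 and 0.16, and its difference among pairs had an adjusted p of 0.0645. Hnrnpc, which binds uridine tracts, had a mean of 0.30 ± 0.24 (SD, n = 3), and one of 0.39 with an unadjusted p under 0.05 after local centring; it was singled out after its values were seen.

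Of the Rbm proteins, a mixed family with an RNA recognition motif, 4 of 6 lay below 0 with a median of -0.04. After local centring, and likewise with the arrays scaled to one spread, 2 of 6 did, and the medians were 0.06 and 0.05. Rbm39, a cofactor of U2AF, had -0.34, -0.23 and -0.23 in pairs 1, 2 and 3. The pairs lay close together and 11 of 12 arrays were below 0. The mean was -0.27 ± 0.06 (SD, n = 3; limma adjusted p of 0.716). After local centring the mean was -0.28, at an unadjusted p under 0.05. Its 3 probes lay at -0.52, 0.20 and -0.48. Rbm26 had 0.23, -0.12 and 0.57, with a mean of 0.22 ± 0.34, and its 2 probes lay at 0.25 and 0.20. Rbm5, a splicing regulator of apoptosis genes, had 1.09, 0.24 and -0.27, with a mean of 0.35 ± 0.69 (SD, n = 3 each) and a difference among pairs at an adjusted p of 0.0497. Its 4 arrays of pair 1 lay between 0.48 and 2.30.

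In the CPSF and CSTF genes of 3′ end cleavage 2 of 3 lay below 0, and 1 of 3 after local centring or with the arrays scaled to one spread. Cpsf7, of the cleavage factor that binds UGUA upstream of the cut, had 0.23, 0.06 and 0.45, above 0 in each pair, with a mean of 0.25 ± 0.20. Cpsf2, a subunit of the cleavage complex, had -0.31, -0.22 and 0.04, with a mean of -0.16 ± 0.18. Cstf3, of the factor that binds downstream of the cut, had a mean of -0.02 ± 0.15 (SD, n = 3 each) from 4 probes between -0.39 and 0.32.

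All 7 Cnot genes had a mean below 0, with a median of -0.11 and a range between -0.43 and -0.03. All 7 also lay below 0 without centring and with the arrays scaled to one spread, but 5 of 7 after local centring, with a median of -0.12. Of all 21370 rows 9214 lay below 0 in the main setting. Without centring 13995 did, with scaling 9029 and after local centring 8979. Of the Cnot genes 6 of 7 were below 0 without replicate 1, 5 without replicate 2, and 6 without replicate 3 and without the widest array. With aged RNA in Cy5 only 3 of 7 lay below 0, with it in Cy3 only 5 of 7, and with the ratios as deposited 3 of 7, with a median of 0.23. Cnot8, a deadenylase subunit that removes poly(A) tails, had -0.20, -0.64 and -0.44 in pairs 1, 2 and 3. Each pair lay below 0. Its 1 probe gave a mean of -0.43 ± 0.22 (SD, n = 3, limma adjusted p of 0.716), and -0.51 after local centring. With the ratios as deposited Cnot8 was at 0.50. In pair 1 the arrays with aged RNA in Cy5 lay at 0.64 and 1.34 and those with it in Cy3 at -1.56 and -1.22, while all 8 arrays of the other pairs were below 0. Cnot10, of a module at the end of the scaffold, had -0.51, 0.12 and -0.43, with a mean of -0.27 ± 0.34. Cnot4, a ubiquitin ligase, had -0.23, -0.10 and -0.11, below 0 in each pair, with a mean of -0.15 ± 0.07. Its arrays averaged -0.44 with aged RNA in Cy5 and 0.15 with it in Cy3. Cnot1, the scaffold of the complex, had -0.06, -0.09 and 0.07, with a mean of -0.03 ± 0.09 (SD, n = 3 each) and of 0.05 after local centring. Of the 7 genes Cnot8 and Cnot4 lay below 0 in each pair. The dye part passed (limma, adjusted p) in 4 of the 7, at 0.50 in Cnot8 (0.0472), 0.41 in Cnot10 (0.0302), -0.29 in Cnot4 (0.0361) and -0.33 in Cnot1 (0.0301), and was larger in size than the age part in each of them. Over all rows the dye part passed in 23.5%, and it was larger than the age part in 13228 of 21218.

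With the ratios as deposited 22 of the 61 genes lay below 0, against 8857 of all 21370 rows. The median of all rows was then 0.07, so rows in general also lay more often above 0. With limma 0 of the 61 passed, while 3 below and 5 above 0 had an unadjusted p under 0.05. The shares of all rows at that threshold were not computed for this reading. The genes with the smallest p were then Snrpc, at -0.49 (adjusted p = 0.108), and Hnrnpab, at 0.49 (adjusted p = 0.123). Below 0 were 3 of 7 SR and U2AF genes, 1 of 5 snRNP and LSm genes, 3 of 10 SF3 and PRPF genes and 5 of 11 hnRNP genes. The same reading gave 1 of 7 Ddx, 4 of 5 Dhx, 0 of 6 Rbm and 2 of 3 CPSF and CSTF genes below 0.

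Probes of the same gene often gave different ratios. For 28 of the 61 genes with more than 1 probe, the first 2 probes had the same sign in 11 (39.3%), against 57% of 867 named genes. All probes had 1 sign in 9 of the 28, and in 12 after local centring, when the first 2 agreed in sign in 14. Genes outside these 28 had 1 probe each, so their probes could not be compared. Among them were Sf3b2, Snrpb2, Srsf3, Cnot8, Hnrnpa3, Hnrnpk, Hnrnpul2 and Rbm5. The median gap between the highest and lowest probe of a gene was 0.354, against 0.262 for named genes, while the median size of the 61 mean ratios was 0.134. The widest gaps were in Sf3b1, Srsf10 and Sf3b3, whose probes for the last lay at -0.62 and 0.17. The narrowest were in Cnot1, with both probes at -0.03, Rbm26 and Srsf6, with probes at 0.15 and 0.04. Besides these probes, 238 list a gene of these families together with other genes. Of 77 such readings for 32 of the 61 genes, 35 (45.5%) had the sign of the gene's own mean.

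**Figure D4:**
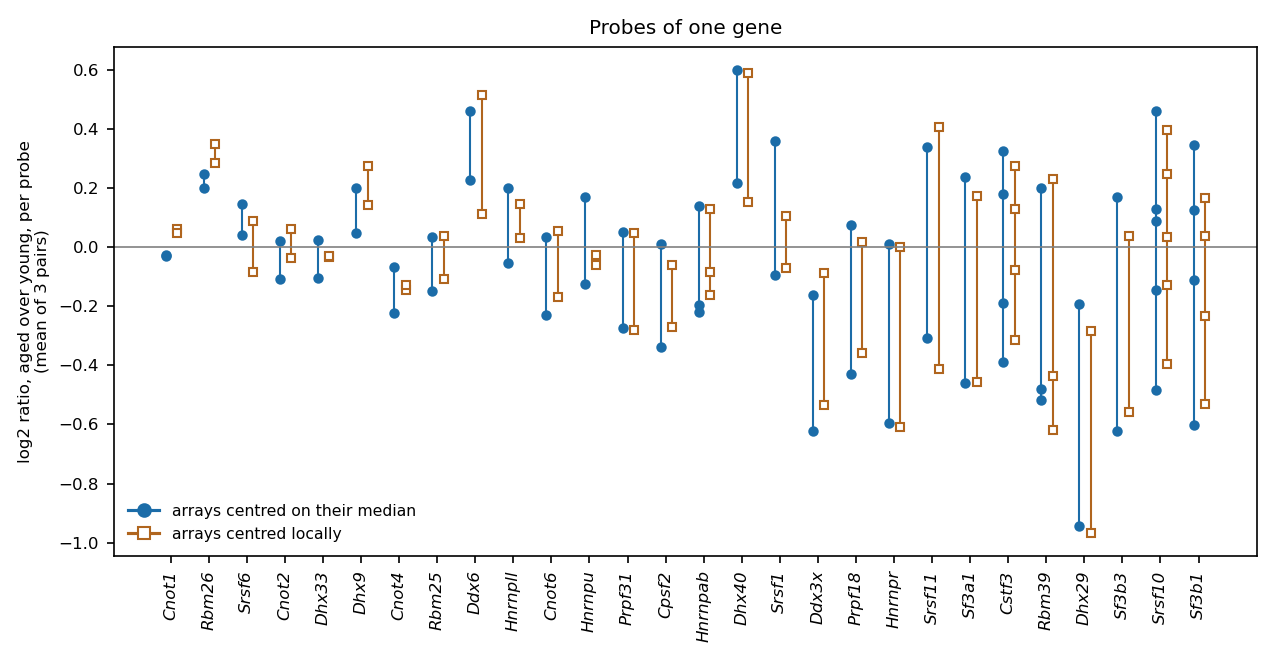
Mean log2 ratio over 3 RNA pairs, aged over young (y axis), of every probe of the 28 genes with more than 1 probe, ordered by the gap between probes, with filled circles for arrays centred on their median and open squares after local centring. The probes of Sf3b1 span -0.60 to 0.35 and those of Cnot1 both lie at -0.03.

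With the assumed direction, the median size of the part that followed the dye was near that of the age part. With the ratios as deposited these parts change places. Which is called age and which dye therefore rests on the assumption. Across the 12 arrays 2 of the 61 genes, Ddx6 and Rbm5, differed among the pairs (limma, adjusted p under 0.05; 3.28%), against 5.99% of all rows. The part of the values that kept its sign when the dyes were swapped passed in 10 genes (16.4%), against 23.5% of all rows, 6 with Cy5 and 4 with Cy3 the brighter under the convention used. The smallest p of dye were those of Hnrnpab, at 0.49 (adjusted p = 0.0136), Snrpc, at -0.49 (adjusted p = 0.0156), and Lsm10, at 0.54 (adjusted p = 0.0251). Of the 6 genes with an unadjusted p under 0.05 for age, Snrpb2 and Cnot8 also had a dye part that passed, at 0.54 (adjusted p = 0.0277) and 0.50 (adjusted p = 0.0472), and in both it was larger than the age part. In 33 of the 61 genes the dye part was larger in size than the age part, against 1798 of 3087 named genes and 13228 of 21218 rows. The median sizes were 0.154 for dye and 0.134 for age, against 0.233 and 0.143 over all rows. Over the 61 genes, arrays of 1 pair in the same dye orientation correlated at a mean r of 0.571, 0.671 and 0.536 in pairs 1, 2 and 3. Arrays in opposite orientations, once turned to aged over young, correlated at -0.0354, 0.147 and 0.241, each opposite in sign to the value over all probes. Arrays of different pairs in the same orientation correlated at a mean r of 0.259 over the 61 genes, above the agreement across dyes within any pair. All of these share probes, and those within a pair share RNA.

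**Figure D5:**
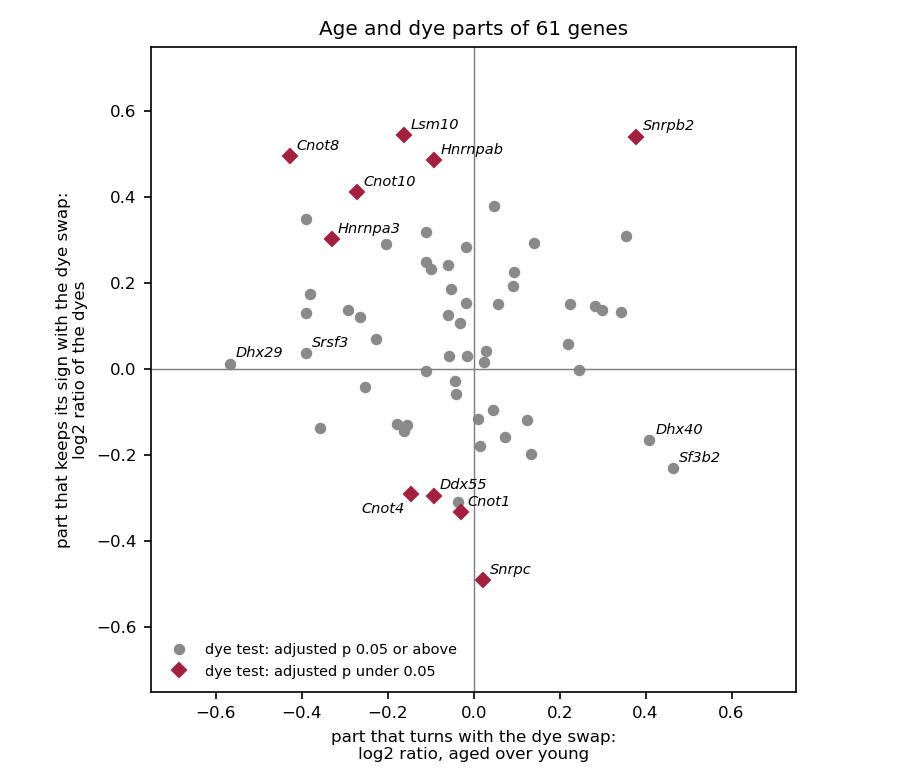
Part of each gene's value that turned with the dye swap (x axis, log2 ratio of aged over young with the assumed direction) against the part that did not (y axis, log2 ratio of the dyes) for the 61 genes. Diamonds mark the 10 genes whose dye part passed (limma, adjusted p under 0.05). Snrpb2 and Cnot8 lie far from 0 on both axes, and Dhx29 lies at -0.57 and 0.01.

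Other genes of the same pathways were taken from a list of 127 spliceosome, export, 3′ end and decay genes, of which 36 were measured. Of these 17 lay below and 19 above 0, with a median of 0.0097, and 0 of 36 passed with limma, while 1 lay below 0 at an unadjusted p under 0.05 and none above. That gene was Ik, a spliceosome component (the RED protein), at -1.40, 0.01 and -1.22 in pairs 1, 2 and 3 and a mean of -0.87 ± 0.77. Srrm2, a large scaffold of nuclear speckles, had a mean of 0.51 ± 0.48, and Eftud2, the GTPase of the U5 snRNP, of -0.68 ± 0.87 (SD, n = 3 each). Pan2, the catalytic subunit of the other main deadenylase, had -0.61, -0.40 and -0.03 and a mean of -0.35 ± 0.29. Bcas2, of the Prp19 complex of the spliceosome, had a mean of -0.46 ± 0.59, and Exosc2, of the RNA exosome, of -0.32 ± 0.38 (SD, n = 3 each).

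Markers of cell types could be read only as ratios, so that presence of oocyte or other cells could not be checked. Of 16 oocyte markers 4 were measured, 3 of them below 0, between -1.18 (Zp2, of the zona pellucida) and 0.62 (Dppa3, a maternal factor). Zp2 had -1.69, 0.56 and -2.41 in pairs 1, 2 and 3, while Kit, at a mean of -0.70, lay below 0 in each pair. Of 15 cumulus and granulosa markers 3 were measured, between -0.15 and 0.09, and of 10 blood and immune markers 4 were, between -0.02 and 0.36. None of the 11 passed (limma, adjusted p of 0.653 or above), and 1 lay below and 2 above 0 at an unadjusted p under 0.05. Their part in the ratios of the splicing and mRNA processing genes was not tested.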

How the data were processed

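Deposited values of 12 two-colour arrays of mouse oocyte RNA were used, 1 per probe and array. From their range they were read as log10 ratios; the deposited table and the labels do not state scale, direction, centring or dye normalization, and for the scanner and its settings the sources used here give nothing. Values at the limits of -2 and 2 (1215) and exact zeros (513), 0.638% of all, were treated as missing. Array medians of the deposited log10 ratios lay between -0.316 and 0.0473.

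Values were converted to log2, centred on each array's median and turned where the aged RNA carried Cy3. Both dye orientations of a pair were averaged with equal weight, and probes with the same single symbol were averaged. The symbols come from the platform annotation, and all 61 matched a RefSeq gene ID. The 3 pair values were tested against 0 with limma 3.58.1 (two-sided) in R 4.3.3, with Benjamini-Hochberg adjustment at 0.05 over 21370 rows complete in 3 pairs. On single arrays, limma tested differences between the 3 pairs (dye orientation in the model) and the dye part (pair in the model), over 21219 rows with at least 10 arrays. The tests were also run on simulated data, with changes larger than any mean ratio of the 61 genes and no trend along the probe order. How they behave with smaller changes or such a trend was not tested.

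The genes, the pathway list and the markers were chosen with earlier results of these data known. Named genes are those at an unadjusted p under 0.05, up to 3 per family by smallest p, the 3 with the smallest p of pair and of dye, and the 3 with the widest and the narrowest gap between probes. Of the pathway list, up to 6 by smallest p are named. Alternatives covered centring, scaling, direction, single labellings and dyes, each replicate left out, the choice of probes and the variance. Local centring (15 by 15 probes in rows of 215, the distance of highest mean rho, 0.197, among those of 60 to 400 probes) and the removal of the widest array were added after the data were seen.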

Additional observations from a re-analysis of the deposited data

How the results depend on the processing

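With each alternative tried, 0 of the 61 genes passed at an adjusted p under 0.05 in limma, except in the fit of single arrays with the pair as random block, where 1 passed (Dhx29). The count below 0 at an unadjusted p under 0.05 (3) was 1 with labelling 2 only, 6 with aged RNA in Cy5 only, 5 with the median of the arrays of a pair, 6 with the probe of smallest spread, 6 without the rows of widest technical spread (54 of the 61 genes left), 6 in the block fit and 1 without moderation of the variance. The count above 0 (3) was 0 without centring, 5 if the ratios were aged over young as deposited, 0 with labelling 2 only, 5 in the block fit and 1 without moderation. Leaving out each replicate in turn gave 1 to 3 below and 0 to 4 above: 3 and 4 without replicate 1, 1 and 0 without replicate 2, and 2 and 0 without replicate 3. The median of the 61 genes (-0.04) was -0.15 without centring and 0.11 if the ratios were aged over young as deposited, and between -0.11 and 0.01 with a replicate left out. The count that differed among pairs (2) was 1 with arrays scaled to one spread, 0 if the ratios were aged over young as deposited, 0 with either labelling alone, 1 with limit and zero values kept, 1 with several-gene probes counted, 4 without the rows of widest spread, 1 without the widest array of pair 1, and 0 to 4 with a replicate left out. The count with a dye effect (10) was 5 without centring, 2 if the ratios were aged over young as deposited, 0 with either labelling alone, 18 with the probe of smallest spread, and 0 to 12 with a replicate left out. These counts by unadjusted p, by pair and by dye cover the 61 genes only. The matching shares of all rows were not computed at these settings, so a shift of the whole table cannot be told apart. The cause of these shifts was not tested. Single labellings and left-out replicates also leave fewer arrays. Sign changes among the 61 genes numbered 35 if the ratios were aged over young as deposited, 21 with aged RNA in Cy5 only, 14 without replicate 1, 11 without centring, 12 with aged RNA in Cy3 only, 11 with local centring and 6 without the widest array. No filter on dim probes was possible because signal intensities were not used here, so the share of rows with the widest spread was left out in its place. The test of aged over young is paired by design, since each array holds both RNAs of a pair. The precision rests on 3 pairs.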
